A study of Mus musculus with 22 samples.

Results

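The genes described here are 44 genes known to be induced by type I interferon, given as a list by symbol and all found among the 47729 genes of the deposited tables. Poly(A) RNA of frozen livers of male C57BL/6 mice was sequenced and counted per gene, in 22 libraries and 6 groups. Wild type (WT) mice were set beside knockout (KO) mice, labelled Slc10a1-/-, in which the gene for NTCP is targeted, the sodium-dependent transporter through which hepatocytes take up conjugated bile acids. The groups were WT and KO at 4 weeks (3 and 3 libraries), 8 weeks (4 and 6) and 20 months (3 and 3), with no other allele, agent or treatment in the labels. The labels state neither how the allele was made nor which part of the gene is missing, and say nothing of litters or cages, so p-values measure the spread between these samples.

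Slc10a1 itself checked the labels: it stood at 591, 701 and 677 CPM (read counts scaled to library size) in the WT livers and 108, 253 and 143 CPM in the KO livers at 4 weeks, and every KO library lay below every WT library at each age (log2 fold change -1.93, -2.72 and -1.49 at 4 weeks, 8 weeks and 20 months; adjusted p = 0.0117, 9.00e-05 and 0.821, the last of which did not pass). Transcript remained in every KO library, between 49.4 and 253 CPM, so the counts do not show a complete loss of the messenger RNA. The 4-week libraries held 5496425 to 6956124 counts in genes, those of 8 weeks 18950112 to 26066897 and those of 20 months 18032355 to 26789350. Some libraries stood apart in markers of cell types. At 4 weeks the summed CPM of 10 hepatocyte markers was 68654 in KO library 1 and 132382 to 184871 in the other 5 libraries. At 8 weeks it was 94420 and 83278 in KO libraries 3 and 4, against 87182 to 100564 in WT and 154117 to 201764 in the other KO libraries. At 20 months 10 acute-phase genes summed to 141797 and 74570 CPM in WT libraries 1 and 2 and 8331 to 9128 CPM in the other 4, and 8 neutrophil genes to 2564 and 282.5 CPM against 7.73 to 16.0. The share of reads outside genes was 14.72% in KO library 1 at 20 months and 7.0% to 8.52% in the other libraries of that age.

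Type I interferons are secreted when a cell senses foreign or misplaced nucleic acid. They bind the receptor IFNAR, whose kinases activate Stat2. Together with Irf9, Stat2 forms part of a complex that binds a DNA motif, the interferon-stimulated response element, near the start of its target genes. The products include the factor Irf7, which amplifies the response, sensors of viral RNA, enzymes that degrade RNA or halt translation, and GTPases that attack pathogens inside cells. Several of the 44, above all Irf1 and the GTPases of the Gbp and Irgm families, are also induced by interferon gamma through a second motif, the gamma-activated site. In liver such genes are expressed at a low level without infection by hepatocytes, Kupffer cells and endothelium, so the source cell of a transcript cannot be read from whole liver.

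RefSeq promoter windows (GRCm38.p6), 250 bases before to 50 bases after a start site, matched 33 of the 44 genes by symbol. Both strands were searched for the core of the response element, GAAANNGAAA, and for that of the gamma-activated site, TTCNNNGAA, where N is any base. The response element core was present for 19 of the 33 genes (57.6%) and for 3.99% of the 27025 genes in the table. The gamma-activated core was present for 9 of the 33 (27.3%) and for 9.55% of all genes. Both cores were present for 6 genes and neither for 11, and in 1 place the matches of the cores overlapped. The stretches below are those around the response element core, cut at the start site, for genes whose levels are described below. They run 5′ to 3′ on the gene's strand, and capitals mark the core, which reads GAAA on the given strand or its reverse complement.
Isg15 (chr4:156200855-156200916, minus strand): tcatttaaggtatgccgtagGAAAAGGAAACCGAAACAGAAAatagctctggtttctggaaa
Ifit1 (chr19:34640765-34640833, plus strand): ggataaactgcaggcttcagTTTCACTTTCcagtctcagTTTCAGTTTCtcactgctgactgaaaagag
Ifit3 (chr19:34583353-34583432, plus strand): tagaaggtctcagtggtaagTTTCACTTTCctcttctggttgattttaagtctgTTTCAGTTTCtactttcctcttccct
Bst2 (chr8:71537567-71537622, minus strand): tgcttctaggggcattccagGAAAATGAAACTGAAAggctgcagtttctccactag
Gbp2 (chr3:142620584-142620633, plus strand): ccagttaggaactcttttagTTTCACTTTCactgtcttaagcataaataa
Irgm1 (chr11:48871421-48871470, minus strand): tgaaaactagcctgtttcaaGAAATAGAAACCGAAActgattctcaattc
Igtp (chr11:58199502-58199551, plus strand): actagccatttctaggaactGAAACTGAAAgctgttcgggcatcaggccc
Irgm2 (chr11:58214893-58214942, plus strand): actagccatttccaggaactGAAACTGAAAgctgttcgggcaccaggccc
Oas1a (chr5:120907526-120907565, minus strand): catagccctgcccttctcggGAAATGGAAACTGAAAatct
Irf7 (chr7:141266425-141266504, minus strand): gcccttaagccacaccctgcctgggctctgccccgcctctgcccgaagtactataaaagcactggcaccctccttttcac

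Isg15 has 3 overlapping cores in a row, and the stretch of Irf7, shown because that gene differed most at 4 weeks, has none, like the rest of its window. The Ifit3 stretch is equal to that of its neighbour Ifit3b at 80 of 80 bases, and those of Igtp and Irgm2 are equal at 48 of 50. Among genes with a window, the core was present for 10 of 19 genes that were lower in KO at 4 weeks and for 5 of 10 that did not pass the test. A match describes these letters and is not evidence of binding, and no match says only that the letters are absent from that window.

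At 4 weeks the interferon genes were lower in the KO livers across nearly all of their families. Of 39 genes with enough counts to be tested, 25 fell, 0 rose and 14 did not pass, where 5.6% of all 11144 genes tested fell and 5.17% rose. The median log2 fold change of the 39 was -1.53, against 0.01 for all genes, and 38 of the 39 values were negative. The test was edgeR's quasi-likelihood F-test at a Benjamini-Hochberg adjusted p of 0.05, and of the genes called lower 24 were also called by DESeq2. No gene with a positive value had an unadjusted p under 0.05, and DESeq2 called 0 higher. Every KO library lay below every WT library for 32 of the 39 (19.8% of all genes tested) and above for 0 (15.8% of all genes tested). In bulk liver, fewer cells of a type and less RNA per cell cannot be told apart. The share of reads outside genes also differed between the groups, at 6.92%, 6.13% and 6.28% in WT and 9.65%, 7.87% and 7.77% in KO libraries, with no overlap. Its part in the result was not tested.

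**Figure D1:**
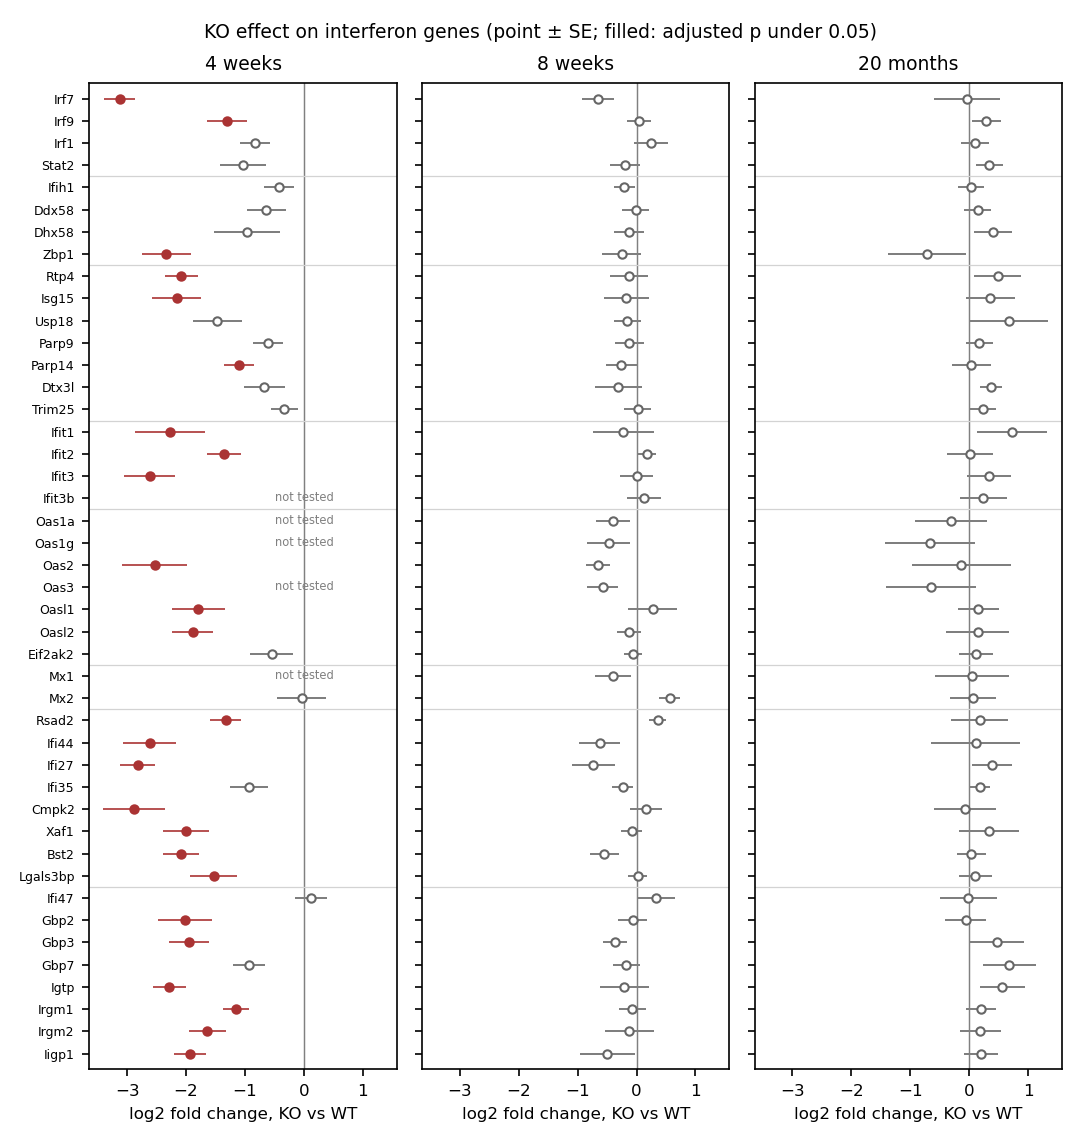
Log2 fold change of KO against WT for the 44 interferon genes (rows, in blocks by role) at 4 weeks, 8 weeks and 20 months, as points with SE bars. Filled points passed an adjusted p of 0.05: 25 at 4 weeks, all left of 0, and 0 at the other ages; 5 genes were not tested at 4 weeks.

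Of the 4 transcription factors 2 fell. Irf7 (ENSMUSG00000025498, chr7:141262706-141266481, minus strand) stood at 23.5, 30.9 and 36.8 CPM in WT and 2.69, 3.62 and 3.84 CPM in KO livers. The highest KO value was far under the lowest WT value, an 8.75-fold difference in the fit (log2 fold change of -3.13 with SE 0.27, adjusted p = 4.24e-04; n = 3 per group). Irf9, the DNA-binding partner of Stat2, was at 29.2, 28.4 and 35.2 CPM in WT and 6.38, 18.5 and 11.7 CPM in KO (log2 fold change of -1.31 with SE 0.34, adjusted p = 0.0445). KO library 1 was the lowest of these. Stat2, the subunit that activates transcription, had values of 96.4, 77.6 and 79.3 against 16.3, 46.3 and 58.3 CPM. The groups did not overlap, yet the difference did not pass (log2 fold change of -1.04 with SE 0.39, adjusted p = 0.123), and neither did that of Irf1, a factor also driven by interferon gamma (17.9, 19.8 and 18.6 against 10.2, 7.04 and 13.7 CPM; log2 fold change of -0.83 with SE 0.26, adjusted p = 0.0729).

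Among the 4 sensors of nucleic acid, 1 fell and 3 did not pass. Zbp1, which binds left-handed RNA and DNA and can start cell death, fell from 5.40, 3.34 and 4.62 CPM to 0.504, 1.01 and 1.07 CPM (log2 fold change of -2.34 with SE 0.42, adjusted p = 0.0138). The cytosolic RNA helicases did not pass. Ddx58, which encodes RIG-I, was at 25.3, 16.9 and 13.1 in WT and 9.24, 16.1 and 9.18 CPM in KO (log2 fold change -0.64, SE 0.33). Ifih1, which encodes MDA5, was at 25.7, 34.4 and 26.6 and 15.5, 28.0 and 19.4 CPM (-0.43, SE 0.26). Dhx58, which encodes LGP2, was at 4.84, 2.98 and 5.73 and 0.672, 2.01 and 4.27 CPM (-0.97, SE 0.56). In these 3 helicases the groups overlapped.

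Among 7 genes of protein modification and feedback, 3 fell and 4 did not pass. Isg15, a ubiquitin-like protein that is attached to other proteins, fell from 6.70, 5.27 and 8.60 CPM to 1.18, 2.41 and 0.854 CPM (log2 fold change of -2.16 with SE 0.42, adjusted p = 0.0177). Usp18, which removes Isg15 and dampens the receptor, stood at 8.38, 20.2 and 20.2 and 5.21, 8.45 and 3.42 CPM and did not pass (log2 fold change of -1.47 with SE 0.42, adjusted p = 0.0573); WT library 1 overlapped KO library 2. Rtp4, an interferon-induced chaperone of membrane receptors, had WT values close together at 15.3, 16.9 and 16.4 CPM and KO values of 2.52, 3.82 and 4.91 CPM (log2 fold change of -2.08 with SE 0.28, adjusted p = 0.00516). Parp14, an ADP-ribosyltransferase, fell by a smaller amount (36.1, 30.9 and 29.9 to 18.1, 15.7 and 9.82 CPM; log2 fold change of -1.11 with SE 0.25, adjusted p = 0.0301). Parp9 (-0.60, SE 0.25), its partner ligase Dtx3l (-0.67, SE 0.35) and Trim25, a ligase that acts on RIG-I (-0.33, SE 0.22), did not pass. Exons of Parp9 and Dtx3l overlap on opposite strands over 458 bases, and the strand setting of the counting is not given in the sources used here.

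All 3 tested genes of the Ifit family, whose proteins bind foreign RNA, fell. Ifit1 went from 8.19, 13.0 and 12.4 CPM to 0.336, 4.42 and 2.13 CPM (log2 fold change of -2.27 with SE 0.59, adjusted p = 0.0438). Ifit3 went from 9.68, 8.60 and 12.9 CPM to 0.672, 2.61 and 1.71 CPM (log2 fold change of -2.62 with SE 0.43, adjusted p = 0.00984). Ifit2 fell less, from 6.89, 7.72 and 10.2 CPM to 3.02, 3.62 and 2.78 CPM (log2 fold change of -1.35 with SE 0.29, adjusted p = 0.0229). KO library 1 was the lowest for Ifit1 and Ifit3. The paralog Ifit3b had too few counts for the test (1.49, 3.16 and 3.18 in WT and 0.336, 0.603 and 0.427 CPM in KO), and reads may have been split between the paralogs, which was not tested.

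The Oas genes encode enzymes that make the oligoadenylates which switch on RNase L. Oas2 stood at 2.42, 6.50 and 8.60 CPM in WT and 0.672, 1.41 and 0.854 CPM in KO livers (log2 fold change of -2.53 with SE 0.55, adjusted p = 0.0248). Oasl1 (2.98, 2.46 and 4.93 to 1.01, 0.603 and 1.28 CPM; log2 fold change -1.79, SE 0.45) and Oasl2 (7.07, 8.08 and 10.8 to 1.85, 1.61 and 3.42 CPM; -1.89, SE 0.35), relatives without that activity or with little of it, fell as well. Oas1a, Oas1g and Oas3 had too few counts for the test. For Oas1a the values were 1.86, 1.58 and 3.34 against 0.168, 0.201 and 1.07 CPM. Oas3 was at 1.49, 3.16 and 5.41 in WT and 0.504, 0.201 and 0 CPM in KO, and the count of 0 in KO library 3 allows up to 0.640 CPM, for counting error only. Oas1g was at 1.68, 0.702 and 2.55 and 0, 0.603 and 0.213 CPM, where the 0 in KO library 1 allows up to 0.504 CPM. All KO values of these 3 genes were below all WT values, and Oas1a and Oas1g are paralogs between which reads may have been split, which was not tested. Eif2ak2, the kinase PKR that halts translation, did not pass (18.8, 16.2 and 13.8 against 5.88, 16.9 and 9.82 CPM; log2 fold change of -0.55 with SE 0.36, adjusted p = 0.348).

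Neither Mx gene was called. Mx2 had overlapping values of 3.91, 5.97 and 3.82 and 2.69, 3.42 and 7.05 CPM (log2 fold change -0.04, SE 0.41). Mx1 was too low for the test (1.68, 3.16 and 1.75 against 0.672, 0.804 and 1.07 CPM), with no overlap. They are paralogs.

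Of 8 other antiviral genes 7 fell. Ifi27 (ENSMUSG00000064215, chr12:103434211-103440239, plus strand), a small mitochondrial membrane protein, was at 65.3, 63.0 and 108 CPM in WT and 9.58, 8.65 and 14.3 CPM in KO (log2 fold change of -2.82 with SE 0.30, adjusted p = 0.00160). Bst2 (ENSMUSG00000046718, chr8:71534255-71537456, minus strand) encodes tetherin, which holds budding viruses on the cell surface, and stood at 96.6, 106 and 145 CPM and 16.8, 37.4 and 25.6 CPM (log2 fold change of -2.08 with SE 0.31, adjusted p = 0.00740). Cmpk2, a mitochondrial nucleotide kinase, went from 9.12, 4.92 and 6.69 to 0.840, 1.61 and 0.213 CPM (log2 fold change of -2.88 with SE 0.53, adjusted p = 0.0145). In each of these the lowest WT value was above the highest KO value. Rsad2, the enzyme viperin, which makes a chain-terminating nucleotide, fell from 15.8, 13.5 and 19.4 to 8.06, 5.43 and 5.34 CPM (log2 fold change of -1.32 with SE 0.26, adjusted p = 0.0197). Ifi44 (-2.62, SE 0.46), the apoptosis factor Xaf1 (-2.0, SE 0.39) and the secreted glycoprotein Lgals3bp (-1.53, SE 0.40) fell too. Ifi35 did not pass (log2 fold change of -0.93 with SE 0.32, adjusted p = 0.0965), and 16.8% of its exon length overlaps a gene on the opposite strand.

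The immunity-related GTPases and guanylate-binding proteins act on membranes around intracellular pathogens. Iigp1, the most abundant of them, stood at 469, 404 and 424 CPM in WT and 124, 135 and 72.8 CPM in KO livers (log2 fold change of -1.93 with SE 0.27, adjusted p = 0.00603). Igtp went from 21.2, 22.6 and 17.8 to 2.69, 4.63 and 5.12 CPM (log2 fold change of -2.28 with SE 0.29, adjusted p = 0.00366). Irgm1 fell from 37.8, 40.4 and 36.0 to 17.0, 20.1 and 12.8 CPM (log2 fold change of -1.15 with SE 0.22, adjusted p = 0.0155) and Gbp2 from 9.49, 13.0 and 7.16 to 0.840, 3.42 and 2.99 CPM (log2 fold change of -2.02 with SE 0.46, adjusted p = 0.0310). These KO values lay below all WT values. Gbp3 (-1.95, SE 0.34) and Irgm2 (-1.64, SE 0.31), which shares 162 exon bases with Igtp, also fell. Gbp7 did not pass (log2 fold change of -0.93 with SE 0.27, adjusted p = 0.0571). Ifi47 was the member with a positive value: it stood at 8.01, 8.60 and 5.57 in WT and 8.90, 7.44 and 7.05 CPM in KO (log2 fold change of 0.12 with SE 0.27, adjusted p = 0.808).

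The number of 4-week calls moved with single libraries. KO library 1 held the lowest value of 27 of the 44 genes, and without it 28 of 42 tested genes were called lower. The count was 7 of 39 without WT library 3, 11 of 39 without WT library 2 and 12 of 42 without KO library 3, and all of these were called in the full comparison too. The share of all genes tested that was called lower moved as well, from 5.6% in the full comparison. It was 8.44% without KO library 1, 1.04% without WT library 3, 1.3% without WT library 2 and 1.92% without KO library 3. Irf7, Rtp4, Ifi27, Bst2, Igtp and Iigp1 were called whichever library was left out, while Oasl1 lost its call in each such fit (adjusted p up to 0.181). The median log2 fold change moved less, between -1.87 and -1.39.

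Per kilobase of exon, Bst2 (146 CPM per kb), Iigp1 (138) and Ifi27 (76.7) had the highest mean levels of the 44 genes in 4-week WT livers, followed by Lgals3bp (30.5). Mx1 (0.648) and Oas3 (0.711) were the lowest. Bst2 and Iigp1 were among the top 3 in each of the 6 groups. Irf7 ranked 10 of 44 in 4-week WT livers (12.7 CPM per kb) and 25 of 44 in 4-week KO livers (1.41 CPM per kb).

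**Figure D2:**
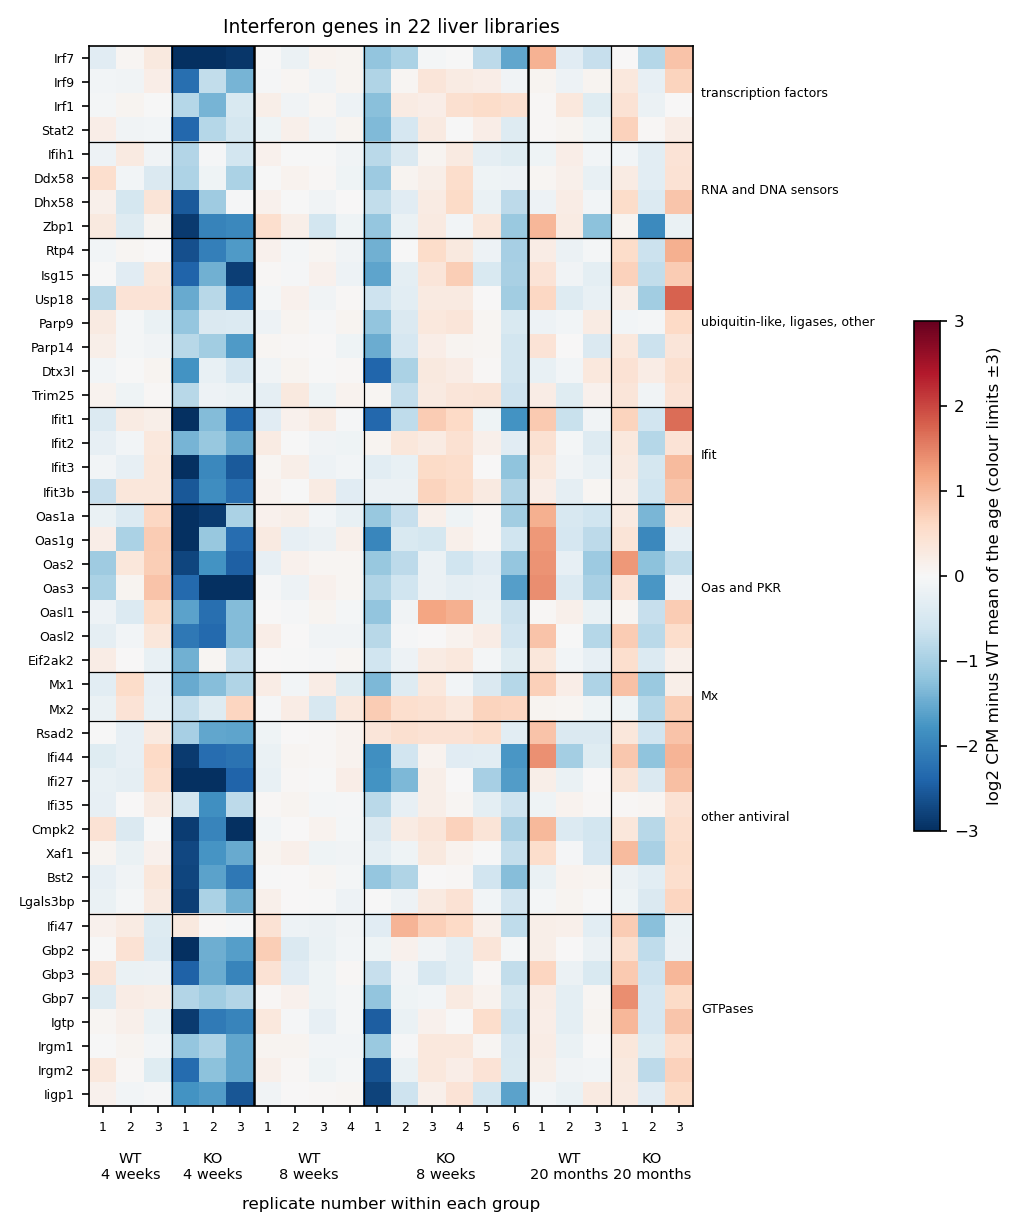
Each row is an interferon gene, each column a liver library (numbers are replicates), and colour is log2 CPM minus the WT mean of the same age, clipped at ±3. The 3 KO columns at 4 weeks are blue in nearly every row, KO columns 1 and 6 at 8 weeks and KO column 2 at 20 months are blue in most rows, and Mx2 and Ifi47 depart from the block at 4 weeks.

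Other genes of the pathway were read from lists chosen for their roles, with earlier results of these data known. The calls below are at 4 weeks, where 5.6% of all genes tested were called lower and 5.17% higher. Of 20 interferon ligand genes 17 had 0 counts in all 22 libraries, among them all but 1 of the genes of the alpha and beta families. At 4 weeks no ligand had enough counts for a test, and their summed level was 0 to 0.559 CPM in WT and 0 to 0.213 CPM in KO. The 3 with any count were Ifnk, Ifng and Ifna13, named after their values were seen; their highest values in any library were 0.930, 0.372 and 0.0347 CPM. Of 10 genes of receptors, kinases and Stat factors tested, Stat3, which carries the signal of interleukin-6, rose (54.5, 85.7 and 75.1 to 121, 176 and 161 CPM; log2 fold change of 1.13 with SE 0.23, adjusted p = 0.0225) and Tyk2, a kinase of the interferon receptor, fell (15.3, 13.5 and 12.1 to 8.74, 5.43 and 6.40 CPM; log2 fold change of -0.94 with SE 0.26, adjusted p = 0.0499). Of 19 other genes of nucleic acid sensing 3 fell and 0 rose. They were Samhd1, which destroys nucleotides (log2 fold change of -1.12 with SE 0.22, adjusted p = 0.0182), Unc93b1, which brings Toll-like receptors to endosomes (-0.92), and the adaptor Traf3 (-1.31). Among 9 negative regulators, 1 rose: the phosphatase Ptpn2 (16.4, 19.1 and 16.1 to 73.9, 29.8 and 40.1 CPM; log2 fold change of 1.52 with SE 0.33, adjusted p = 0.0244). A longer list of 52 tested interferon-stimulated genes outside the 44 had 18 lower and 0 higher, with a median log2 fold change of -0.90. Apol9a fell from 17.9, 15.3 and 24.8 to 1.18, 2.41 and 3.20 CPM (log2 fold change of -3.07 with SE 0.37, adjusted p = 0.00329), the surface protein gene Ly6e from 82.7, 121 and 128 to 22, 32.6 and 31.4 CPM (log2 fold change of -1.91 with SE 0.24, adjusted p = 0.00400) and Ifi213, of the family of DNA-binding interferon proteins, from 4.84, 4.74 and 5.41 to 0.504, 0.402 and 1.07 CPM (log2 fold change of -2.88 with SE 0.41, adjusted p = 0.00654).

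Summed markers of some other liver cell types were lower in KO livers at 4 weeks, while those of stellate cells were higher. Neutrophil marker sums overlapped (7.82 to 15.8 CPM in WT, 8.40 to 23.5 CPM in KO). Of all genes tested at that age, 5.6% were called lower and 5.17% higher. Of 13 Kupffer cell and macrophage markers tested, 1 was higher and 4 lower, and their summed level was 824 to 1005 CPM in WT and 515 to 742 CPM in KO. Of 10 endothelial markers 3 were lower and 0 higher (396 to 501 CPM summed in WT, 258 to 335 in KO). Summed lymphocyte and natural killer markers were 28.3 to 32.2 CPM in WT and 8.40 to 19.6 in KO, and plasmacytoid dendritic markers 20.5 to 22.8 and 13.9 to 16.9 CPM, and edgeR called 0 of the 2 and 0 of the 1 gene tested (1 and 0 had an unadjusted p under 0.05, and DESeq2 called 0 and 1). Of 8 stellate cell markers 1 was higher and 1 lower, and their sum was 259 to 321 CPM in WT and 348 to 471 CPM in KO. Named after their values were seen, the higher marker was Dcn (mean of 178 CPM in WT, 337 in KO) and the lower was Col1a2 (18.8 and 7.64 CPM). Rgs5 (32.5 and 18.8 CPM) and Col1a1 (4.03 and 0.916 CPM) did not pass. Of 10 hepatocyte markers 1 was higher and 0 lower. No marker in these lists was at 0 in all libraries. The summed level of the 44 interferon genes was 1373 to 1507 CPM in WT and 419 to 639 CPM in KO. The part of these other cells in the interferon result was not tested.

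**Figure D3:**
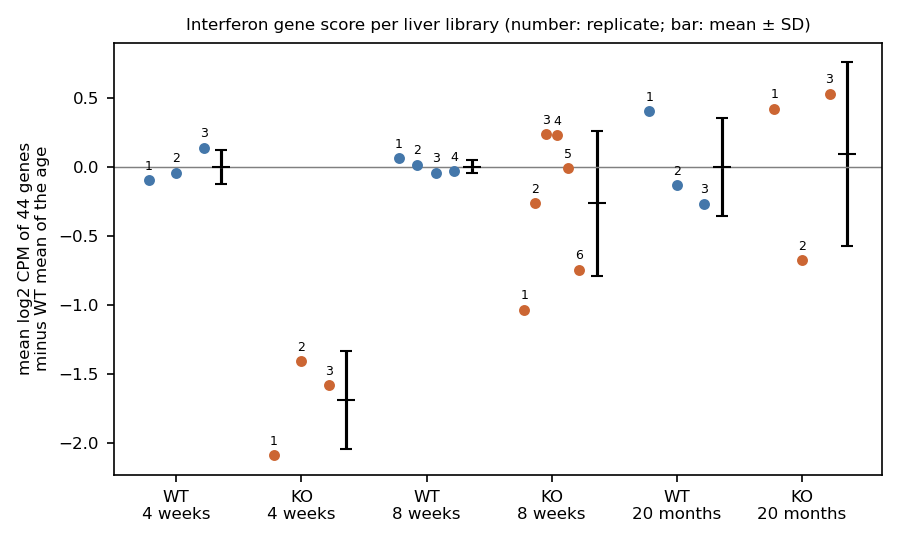
Score of each library: mean log2 CPM of the 44 interferon genes minus the WT mean of the same age, with group mean ± SD beside the points. The 3 KO livers at 4 weeks lie between -2.09 and -1.41, below all WT livers, while the KO livers at 8 weeks and 20 months lie on both sides of 0.

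At 8 weeks no interferon gene passed the test between KO and WT, and the KO livers differed widely from each other. None of the 44 genes was called higher or lower by edgeR or DESeq2, and in edgeR 3 lower and 2 higher genes had an unadjusted p under 0.05. At that unadjusted cut, 550 of all 14522 genes tested were lower and 967 higher. Few genes of any kind were called in this comparison (0.0207% of 14522 lower and 0.00689% higher). The median log2 fold change of the 44 was -0.15, against 0.02 for all genes, and 32 were negative. The score, the mean log2 CPM of the 44 genes minus the WT mean, was -0.04 to 0.06 in the 4 WT livers and -1.03, -0.26, 0.23, 0.23, -0.01 and -0.74 in KO libraries 1 to 6.

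The KO livers were more spread out than the WT livers for 41 of the 44 genes, where that held for 87.8% of all genes tested. The median SD of the genes on the log2 scale was 0.12 in WT and 0.53 in KO, against 0.14 and 0.31 for all genes. KO library 6 lay below the WT range for 41 genes and KO library 1 for 37, where 38.5% and 42.6% of all genes did so. KO libraries 3 and 4 lay above the WT range for 28 and 27 of the 44, where 25.5% and 36.2% of all genes did so. KO libraries 2 and 5 lay below the WT range for 27 and 16 genes, where 37.2% and 34.9% of all genes did so. Hepatocyte marker sums were 201764, 184920, 163092 and 154117 CPM in KO libraries 1, 2, 5 and 6, and near the WT range in KO libraries 3 and 4. Kupffer and macrophage markers summed to 865 to 1068 CPM in KO libraries 1, 2, 5 and 6 and to 462 and 461 CPM in KO libraries 3 and 4, against 478 to 678 CPM in WT. The part of these differences in the interferon levels was not tested.

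Single genes show the pattern. Irf7 stood at 24.1, 21.7, 26.3 and 25.7 CPM in WT and 10.7, 12.5, 23.4, 24.3, 14.1 and 8.19 CPM in KO libraries 1 to 6. KO libraries 3 and 4 were thus at the WT level and the other 4 below it (log2 fold change -0.65, SE 0.27, adjusted p = 0.474). Bst2 had the same order, with 63.0, 64.0, 65.6 and 60.3 CPM in WT and 28.3, 34.0, 63.8, 64.8, 42.2 and 25.9 CPM in KO (-0.55, SE 0.24). Iigp1 stood at 345, 379, 379 and 392 CPM in WT and spanned 54.6, 243, 415, 499, 256 and 122 CPM in KO (-0.49, SE 0.47). In that gene KO library 1 was lowest and KO library 4 highest of all 10. Igtp was at 21.8, 17.0, 14.7 and 16.8 and 3.05, 15.1, 19.0, 17.3, 25.1 and 11.1 CPM (-0.21, SE 0.41), and Ifi27 at 38.1, 45.5, 43.8 and 51.4 and 12.8, 17.3, 50.4, 44.7, 22.3 and 13.9 CPM (-0.73, SE 0.37). KO library 1 was low in both.

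Oas3 and Mx2 were the members whose 8-week groups did not overlap (1.06% of all genes tested had every KO library below every WT library and 1.19% above). Oas3 stood at 2.98, 2.73, 3.33 and 3.17 CPM in WT and 1.58, 1.99, 2.68, 2.52, 2.56 and 0.897 CPM in KO (log2 fold change -0.57, SE 0.26, adjusted p = 0.476). Mx2 was higher in every KO library, at 8.88, 7.40, 7.12, 6.54, 8.33 and 8.19 CPM against 5.04, 6.05, 3.68 and 6.50 CPM in WT (0.56, SE 0.18, adjusted p = 0.474). Neither passed the test. Oas2, with 4.56, 5.95, 5.72 and 5.66 CPM in WT, overlapped in KO library 3 alone (2.42, 3.09, 4.82, 3.55, 4.29 and 2.39 CPM; -0.66, SE 0.21). Rsad2 was above the WT range in 5 of 6 KO livers (16.3, 17.5, 17.0, 16.9, 18.1 and 10.1 CPM against 11.4, 12.7, 12.8 and 13.5; 0.36, SE 0.15).

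For the other genes of the panel the KO values at 8 weeks are given as lowest, median and highest of 6. Irf9 was at 14.2, 29.2 and 34.1 CPM, Irf1 at 7.41, 23.1 and 26.4 CPM and Stat2 at 24.3, 53.8 and 73.7 CPM (log2 fold changes 0.04, 0.24 and -0.20). The sensors Ifih1, Ddx58, Dhx58 and Zbp1 were at 28.5, 40.5 and 60.4, at 14.5, 30.4 and 44.7, at 3.33, 4.84 and 8.72 and at 1.94, 4.02 and 5.72 CPM (log2 fold changes of -0.20, -0.02, -0.13 and -0.25). Isg15, Usp18 and Rtp4 were at 1.05, 2.59 and 5.77, at 5.24, 9.78 and 13.2 and at 3.84, 9.93 and 15.6 CPM (-0.17, -0.16 and -0.13). None of these 10 genes passed, and in each the KO values reached to both sides of the WT mean. Ifit1 and Ifit3 spanned 1.89, 7.58 and 17.1 and 3.48, 7.59 and 12.2 CPM (-0.23 and 0.01). Oas1a, Oasl2, Eif2ak2 and Mx1 had log2 fold changes of -0.40, -0.13, -0.06 and -0.40, and the GTPases Gbp2 and Irgm1 of -0.07 and -0.07. Across all 44 genes the log2 fold changes ran from -0.73 (Ifi27) to 0.56 (Mx2). Without KO library 1 the median log2 fold change was -0.03, and without KO library 3 it was -0.25.

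**Figure D4:**
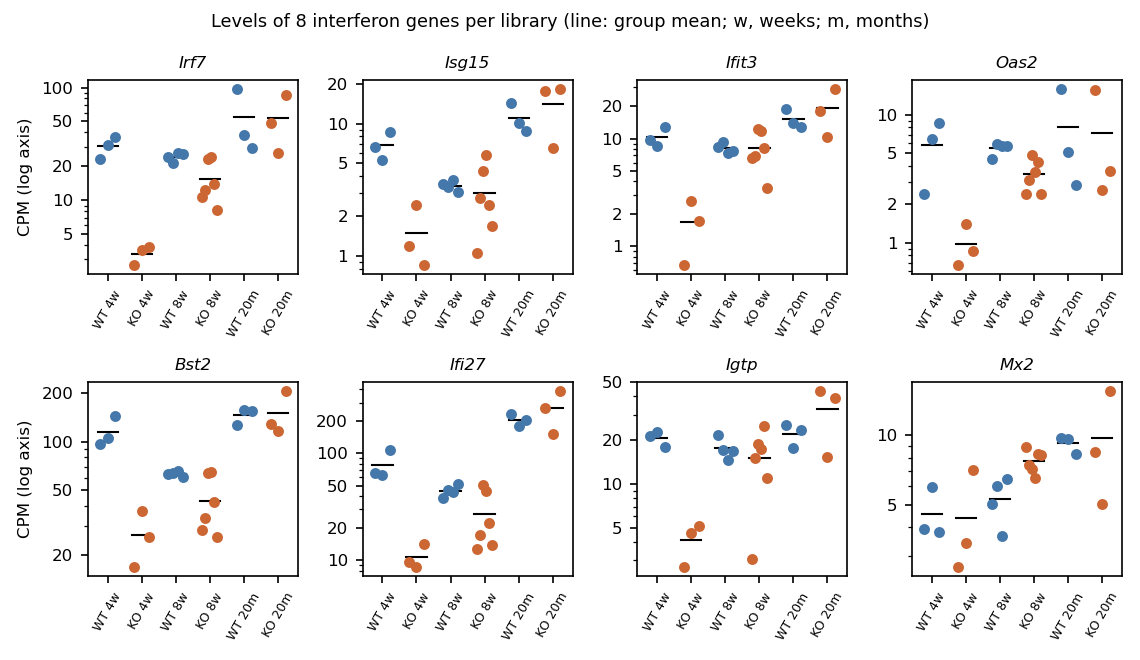
CPM of 8 interferon genes in each of the 22 libraries on log axes, grouped by genotype and age, with group means as lines. KO points lie below WT points at 4 weeks in all panels but Mx2, and they overlap at 20 months in all 8.

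At 20 months the levels of KO and WT livers overlapped for all 44 interferon genes. None was called by edgeR or DESeq2, and 0 had an unadjusted p under 0.05. No gene of the 13966 tested was called lower (0.0%) or higher (0.0%). The median log2 fold change was 0.16 (0.00 for all genes), 9 of 44 values were negative and 0 genes had groups that did not overlap (4.6% of all genes tested had KO below WT and 5.64% above). WT libraries 1 to 3 scored 0.40, -0.13 and -0.27, and KO libraries 1 to 3 scored 0.42, -0.67 and 0.53. KO library 2 held the lowest value of 36 genes, KO library 3 the highest of 23 and WT library 1, where acute-phase and neutrophil genes were high, the highest of 12.

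The factor Irf7 stood at 97.4, 37.8 and 29.2 CPM in WT and 48.1, 26.4 and 86.1 CPM in KO (log2 fold change -0.04, SE 0.56). WT library 1 was the highest of the 6 and KO library 2 the lowest. Irf9 (0.29), Irf1 (0.10) and Stat2 (0.34) did not pass either. Zbp1 had the most negative value of the 44, with 21.4, 12.6 and 4.44 CPM in WT and 11.3, 2.77 and 9.34 CPM in KO (-0.71, SE 0.66), where WT library 1 was again highest. The helicase genes Ifih1, Ddx58 and Dhx58 were at 0.03, 0.15 and 0.41. Ifit1 had the highest value, with 16.1, 5.78 and 8.55 CPM in WT and 14.8, 6.17 and 29.9 CPM in KO (0.73, SE 0.60). Usp18 stood at 12.6, 6.19 and 7.05 and 9.24, 3.93 and 28.2 CPM (0.67, SE 0.67), set apart by KO library 3. Isg15 (0.36), Rtp4 (0.48) and Ifit3 (0.34) had positive values within the spread. Oas2 was high in 1 library of each genotype (16.0, 5.16 and 2.83 CPM in WT, 15.5, 2.59 and 3.65 CPM in KO; -0.13, SE 0.85). Oas1a (-0.31), Oasl2 (0.15), Eif2ak2 (0.12), Mx1 (0.05), Mx2 (0.07) and Rsad2 (0.18) did not pass. Bst2 was at 127, 157 and 155 and 129, 117 and 206 CPM (0.04, SE 0.25). The GTPases Gbp2, Igtp and Irgm1 were at -0.06, 0.56 and 0.20, and Igtp had 25.4, 17.8 and 23.4 CPM in WT and 43.5, 15.4 and 39.0 CPM in KO. Without KO library 2 the median log2 fold change of the 44 was 0.42, and without KO library 3 it was 0.00. The fit without KO library 2 called 0 of the 44, but 6 were higher and 0 lower at an unadjusted p under 0.05. At that cut 171 of all 14298 genes tested were higher and 249 lower. Leaving out WT libraries 1, 2 and 3 in turn gave medians of 0.35, 0.12 and 0.09.

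None of the 5 other interferon lists (108 genes tested at 8 weeks, 102 at 20 months) held a called gene at these ages in edgeR or DESeq2. In edgeR 10 and 5 of their genes had an unadjusted p under 0.05, as did 1517 of all 14522 and 772 of all 13966 genes tested.

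Whether the KO effect changed with age was tested in a fit of all 22 libraries, in which comparisons that involve an age share its libraries. The libraries of 4 weeks also differ from the later ones in layout (paired-end against single-end) and are less deep. A change in the KO effect from 4 weeks to a later age cannot be told apart from these differences. Jointly over the 3 ages the effect differed for 4 of the 44 genes (1.62% of 15877 genes): Irf7 (adjusted p = 0.0408), Ifi27 (0.0321), Ifit3 (0.0330) and Bst2 (0.0425). Between 20 months and 4 weeks it differed for 12 genes, all with a higher KO to WT ratio at 20 months (4.52% of all genes called either way). For Ifi27 the log2 fold changes of KO against WT were -2.82 at 4 weeks and 0.38 at 20 months, a difference of 3.21 (SE 0.63, adjusted p = 0.0106). For Irf7 the difference was 3.11 (SE 0.67, adjusted p = 0.0185), for Ifit3 2.97 (SE 0.63, adjusted p = 0.0157) and for Bst2 2.13 (SE 0.46, adjusted p = 0.0186). The other 8 were Irf9, Cmpk2, Gbp3, Rtp4, Lgals3bp, Xaf1, Ifit3b and Igtp. Of these, Ifit3b had too few counts for the comparison at 4 weeks alone (8, 18 and 20 in WT, 2, 3 and 2 in KO). It was kept in the fit of all libraries, so its call rests on those low counts.

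Between 8 and 4 weeks 0 genes passed in edgeR (0.328% of all genes). At an unadjusted p under 0.05 there were 28, and 12 passed in DESeq2. The share of all genes for these counts is not given here, so they are not set against other genes. Ifit3 had the lowest adjusted p of the 44, with a difference of 2.64 (SE 0.58, adjusted p = 0.0534), and Irf7 had 2.49 (SE 0.62, adjusted p = 0.0722). Without KO library 1 at 8 weeks, the library with the lowest score of that age, 12 genes passed in edgeR. The count between 8 and 4 weeks was also 4 without WT library 1 at 20 months and 1 without KO library 6 at 8 weeks. Between 20 months and 8 weeks 0 genes passed in edgeR (0.0% of all genes), 0 had an unadjusted p under 0.05 and 0 passed in DESeq2.

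These counts moved with single libraries. For the tests over ages, the share of all genes is given for the full edgeR fit alone. Whether the members moved more than other genes was not tested. That between 20 months and 4 weeks was 3 and 5 without WT libraries 3 and 2 at 4 weeks, 6 without KO library 1 at 4 weeks, 5 without WT library 2 at 20 months, and 7 and 4 without KO libraries 1 and 3 at 20 months. It was 20 without KO library 1 at 8 weeks or KO library 2 at 20 months. The joint count was 0 without WT library 2 or 3 or KO library 1 or 3 at 4 weeks, without WT library 2 at 20 months, or without KO library 1 or 3 at 20 months. It was 1 or 2 without a WT library at 8 weeks or KO library 5 of that age, 7 without KO library 2 at 20 months, 11 without WT library 3 at 20 months and 14 without KO library 1 at 8 weeks.

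In WT livers some interferon genes rose and others fell between ages, as did many genes of any kind. The effect of age between 4 weeks and either later age cannot be told apart from the library layout (paired-end at 4 weeks and single-end at the other ages, per the file names) or from the depth. The 8-week and 20-month libraries share a layout and overlap in depth, but the share of reads outside genes was 15.39% to 17.78% in 8-week and 7.0% to 8.52% in 20-month WT libraries. The tags in the file names also differ between ages, and age cannot be told apart from these differences. From 4 to 8 weeks 9 genes fell and 9 rose (25.7% and 27.5% of all genes tested). Isg15 fell from 6.85 ± 1.67 CPM (mean ± SD, n = 3) to 3.40 ± 0.287 CPM (n = 4), a difference of -1.04 (SE 0.20, adjusted p = 0.00150) on the log2 scale, and Bst2 fell from 116 ± 25.5 to 63.2 ± 2.23 CPM. Parp14 rose from 32.3 ± 3.33 to 77.8 ± 4.70 CPM, a difference of 1.25 (SE 0.11, adjusted p = 9.74e-06), and Gbp7 rose by 1.25. Genes that fell from 4 to 8 weeks had exon lengths of 756 to 4397 bases, and those that rose had 2205 to 7417 bases. The part of length in that comparison was not tested. From 8 weeks to 20 months 16 genes rose and 8 fell (27.7% and 26.8% of all genes), with a median log2 difference of 0.48. Exon lengths were 756 to 4397 bases for the genes that rose and 3128 to 7417 bases for those that fell. The part of length in these differences was not tested. WT libraries 1 and 2 of 20 months are those with high acute-phase and neutrophil genes. Without library 1, 14 genes rose and 11 fell and the median was -0.02; without library 2, 14 rose and 6 fell and the median was 0.55. The part of those cells and genes in the differences was not tested. Ifi27 went from 38.1, 45.5, 43.8 and 51.4 CPM to 232, 179 and 206 CPM, a difference of 2.16 (SE 0.14, adjusted p = 2.47e-05). The groups did not overlap. Rtp4 rose by 1.73, Isg15 by 1.65 and Ifi35 by 1.59, whereas Dtx3l and Parp14 fell, with log2 differences of -1.25 and -1.10.

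Between 4 weeks and 20 months 6 genes were higher (6.35% of all genes) and 1 lower (8.25%). Oasl1, at 2.98, 2.46 and 4.93 CPM in young and 14.2, 15.2 and 12.1 CPM in old WT livers, differed by 1.90 (SE 0.30, adjusted p = 0.00921). Ifi27 (1.30), Rtp4, Irf1, Dhx58 and Ifi35 were the other genes that were higher, and Iigp1 was the gene that was lower (-0.83). The higher count was 2 without WT library 1 or 3 at 4 weeks, 0 without WT library 2 at 4 weeks and 4 without WT library 2 at 20 months. The lower count was 0 without WT library 1, 2 or 3 at 4 weeks or without WT library 2 at 20 months, and 2 without WT library 1 at 20 months.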

How the data were processed

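Poly(A) RNA from 22 mouse livers was sequenced on an Illumina instrument, per the labels' protocols. The authors deposited whole-number read counts per gene for each library. The submitters' processing notes name HISAT2 2.0.4, HTSeq 0.6.1p1 and the build GRCm38; the annotation release, strand setting and filters are not given in the sources used here. The 5 summary lines of each table were left out of library sizes, and reads outside genes were 6.13% to 17.78% of a library. Symbols, positions and exon lengths came from GENCODE M21, which named 47224 of the 47729 gene IDs.

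Counts were tested with edgeR 4.0.16 in R 4.3.3 (filterByExpr, TMM scaling, quasi-likelihood F-test, Benjamini-Hochberg adjustment over all genes, threshold 0.05), each age fitted alone. The change of the KO effect with age was tested in 1 fit of all 22 libraries and WT ages in fits of 2 WT groups. CPM used TMM factors of all 22 libraries, and the score used log2 CPM with a prior count of 2. At these depths 3 counts are worth 0.103 to 0.640 CPM. Tests were checked on simulated data. Alternatives were DESeq2 1.42.0, its size factors, no filter, each library left out, a replicate block and a fit of all libraries. The labels do not say that equal replicate numbers share anything, and the main tests used no block. Deviations of same-numbered libraries correlated between -0.068 and 0.016 (4 weeks), -0.327 and 0.073 (8 weeks) and 0.029 and 0.458 (20 months). Those of differently numbered libraries correlated between -0.144 and 0.103, -0.214 and 0.258, and -0.497 and 0.277. The 2 highest values at 20 months were of same-numbered libraries, so a pairing at that age is not excluded. No libraries were duplicates by count.

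The text names a panel of 24 of the 44 genes in each KO comparison, and other members that passed a test of KO against WT or of the KO effect over ages; the rest are given by count or where a family is described. The members and lists were chosen with earlier results of these data known.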

Additional observations from a re-analysis of the deposited data

Results flagged for a closer look

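The KO effect at 20 months minus that at 4 weeks passed the test for 12 genes. The log2 differences were 3.21 for Ifi27, 3.11 for Irf7, 2.97 for Ifit3, 2.85 for Igtp, 2.84 for Cmpk2 and 2.73 for Ifit3b. They were 2.57 for Rtp4, 2.43 for Gbp3, 2.34 for Xaf1, 2.13 for Bst2, 1.64 for Lgals3bp and 1.61 for Irf9. Adjusted p-values of edgeR's quasi-likelihood test ran from 0.0106 (Ifi27) to 0.0473 (Lgals3bp). In the joint test over the 3 ages the adjusted p was 0.0321 for Ifi27, 0.0330 for Ifit3, 0.0408 for Irf7 and 0.0425 for Bst2. All share the 4-week libraries, in which Ifit3b had too few counts to be tested at that age alone.

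In 3 of 90 groups of 4 or 6 libraries tested, a single library stood far from the rest, where chance gives about 5%. Ifi47 was 13.6 CPM in WT library 1 at 8 weeks against a median of 9.07 CPM in the others. Irf1 was 7.41 CPM in KO library 1 at 8 weeks against 25.0 CPM. Rsad2 was 10.1 CPM in KO library 6 at 8 weeks against 17.0 CPM.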

How the results depend on the processing

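The direction of the 4-week result held in every setting run: the median log2 fold change was -1.87 to -1.39 with a library left out, and 0 genes were called higher (0 to 0). The number called lower, 25, ranged from 7 to 28 with a library left out, beside 1.04% to 8.44% of all genes tested. With the replicate block it was 14. Whether equal replicate numbers share anything is not given in the labels, so it is not known if the block describes a pairing. The block changed no call at 8 weeks or 20 months (0 in each direction, with KO libraries 5 and 6 not in the 8-week block). At 8 weeks and 20 months the counts stayed at 0 (0 to 0), with medians of -0.25 to -0.03 and 0.00 to 0.42. The joint count, 4, was 17 in DESeq2, 8 with no filter and 0 to 14 with a library left out. That between 8 and 4 weeks, 0, was 12 in DESeq2 and 0 to 12 with a library left out. That between 20 months and 4 weeks, 12, was 24 in DESeq2 and 3 to 20, and that between 20 months and 8 weeks was 0 to 0. For WT ages, leaving out a library gave 7 to 10 lower and 7 to 9 higher between 8 and 4 weeks, 0 to 2 lower and 0 to 7 higher between 20 months and 4 weeks (0 lower with no filter), and 6 to 11 lower and 12 to 19 higher between 20 months and 8 weeks. The cause of these shifts was not tested. Scoring with all 44 genes equals the score given. Depth limits the 4-week libraries most: 5 of 44 genes had too few counts to be tested.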
